A study of Caenorhabditis elegans with 2 samples.

Results

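Of the 30000 entries in the pooled list for GFP-tagged ZAG-1 in Caenorhabditis elegans larvae, 1101 (3.67%) had their summit between the starts of neighbouring protein-coding genes that point away from each other. Such an entry was counted when the left gene lay on the minus strand, the right gene on the plus strand and the gene starts were 2000 bp or less apart. The rule used position alone, not signal. The series consists of chromatin immunoprecipitation and sequencing of whole L1 larvae of the strain OP83, unc-119(ed3) III; wgIs83, in 2 biological replicates that form 1 group. All animals carried the same integrated eGFP-zag-1 transgene and, per the labels, were of mixed sex. ZAG-1 from the endogenous locus carries no tag, so the lists describe the transgenic protein over all cells of the animal together, and no comparison between conditions can be made. The optimal list, which the release notes describe as thresholded on the irreproducible discovery rate, holds the pooled entries of highest signal, 1.59% of them.

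Genes that start back to back share the stretch of DNA between their starts, and one open region there can serve the promoters of both. In the compact genome of C. elegans such pairs are common, and many of them hold genes for basic cell functions. ZAG-1 is a zinc finger homeodomain protein of the ZEB family, needed for neurons to take on their fates and for axons to find their way, and ZEB proteins in vertebrates are known to bind CAGGTG and CAGGTA (E-box) sequences.

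The windows below show what such a shared stretch looks like at 4 of the gaps with the highest signal, 75 bp on each side of the summit, from the RefSeq sequence of WBcel235, which is ce11. They were picked to show windows with and without the hexamer GAGAGA, the hexamer CGTCTC or the hexamer GACGCA. Capitals mark a match to any of these on either strand, and their counts over all entries are given further on.
let-70/klc-1 (chrIV:11082918-11083068, + strand): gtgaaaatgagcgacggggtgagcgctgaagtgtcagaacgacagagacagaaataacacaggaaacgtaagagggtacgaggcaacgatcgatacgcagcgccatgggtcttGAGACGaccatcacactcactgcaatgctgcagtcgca
rpl-15/K11H12.8 (chrIV:654849-654999, + strand): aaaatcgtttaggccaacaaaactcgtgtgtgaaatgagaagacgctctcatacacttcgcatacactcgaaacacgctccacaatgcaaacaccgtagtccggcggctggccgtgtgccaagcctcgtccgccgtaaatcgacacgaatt
F01G4.6/pfd-1 (chrIV:11149730-11149880, + strand): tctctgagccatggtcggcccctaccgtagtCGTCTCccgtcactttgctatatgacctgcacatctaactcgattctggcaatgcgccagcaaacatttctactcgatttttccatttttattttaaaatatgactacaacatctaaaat
K12H4.6/K12H4.5 (chrIII:8043879-8044029, + strand): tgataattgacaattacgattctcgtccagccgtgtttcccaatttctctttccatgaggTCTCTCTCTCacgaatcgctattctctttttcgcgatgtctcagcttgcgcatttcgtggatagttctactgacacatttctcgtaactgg

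Entries in these gaps ranked higher than entries elsewhere. In the optimal list were 102 of the 1101 entries, 9.26% (95% Wilson interval 7.69 to 11.1), against 376 of the 28899 other pooled entries, 1.30% (1.18 to 1.44), and against 1.59% of the pooled list as a whole. The ratio of the shares was 7.12. Head-to-head gaps thus held 3.67% of the pooled list and 21.3% of the optimal list. Intervals here and below cover counting error only, treat entries as independent, and cannot take account of read depth, which is unknown.

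The difference was not limited to the optimal list. The median rank by the authors' signal value, with 1 as the highest, was 9091 for entries in the gaps and 15185 for the others. Among the 1000 highest entries were 191 of the 1101, or 17.3%, against 2.80% of the others. The entries just after the optimal list, at ranks 479 to 956, included 83 from head-to-head gaps, 17.4% of them. Among the 20 highest entries of all, 9 lay in such gaps. Within the optimal list, 23.4% of the peaks above the median signal lay in them, 56 peaks, and 46 lay below it.

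**Figure D1:**
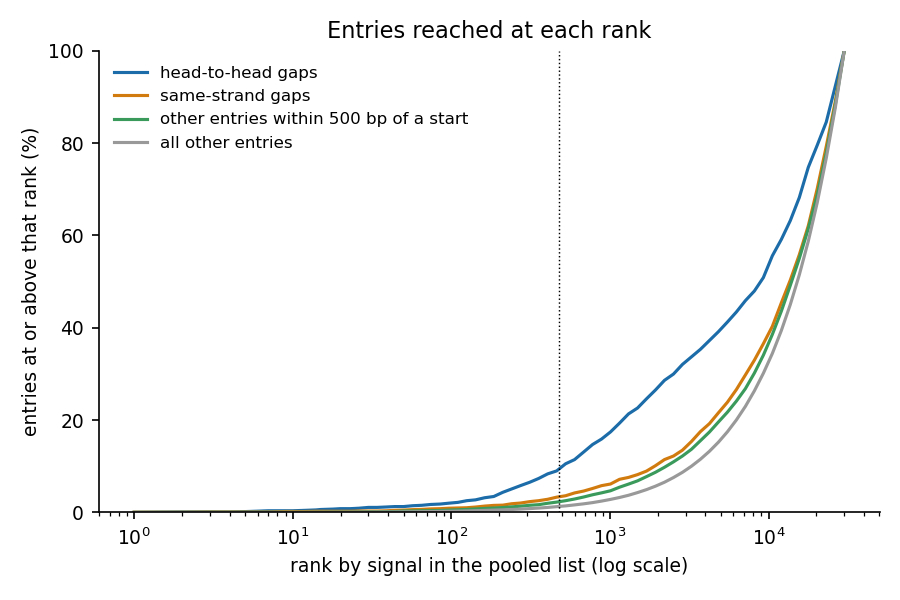
Share of entries (%) at or above each rank by signal in the pooled list (log scale), for head-to-head gaps, same-strand gaps, other entries within 500 bp of a gene start and all other entries; the dotted line marks the end of the optimal list. The curve for head-to-head gaps lies above the other 3 from rank 5 until all meet at 100%, and reaches 17.3% at rank 1000.

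Closeness to a gene start went along with part of the difference. Of the 5541 other entries within 500 bp of a start, 2.33% were in the optimal list (95% interval 1.96 to 2.76). Short gaps between genes on the same strand, which hold the upstream sequence of 1 gene, had 67 of 1965 entries in it, 3.41% (2.69 to 4.31), with a median rank of 13611. In short tail-to-tail gaps, which hold no gene start, it was 5 of 371, 1.35% (0.577 to 3.12). Head-to-head gaps over 2000 bp had 103 of 4190, 2.46% (2.03 to 2.97), and protein-coding genes 113 of 16366, 0.690% (0.575 to 0.829). The interval for short head-to-head gaps overlapped that of no other class named here.

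**Figure D2:**
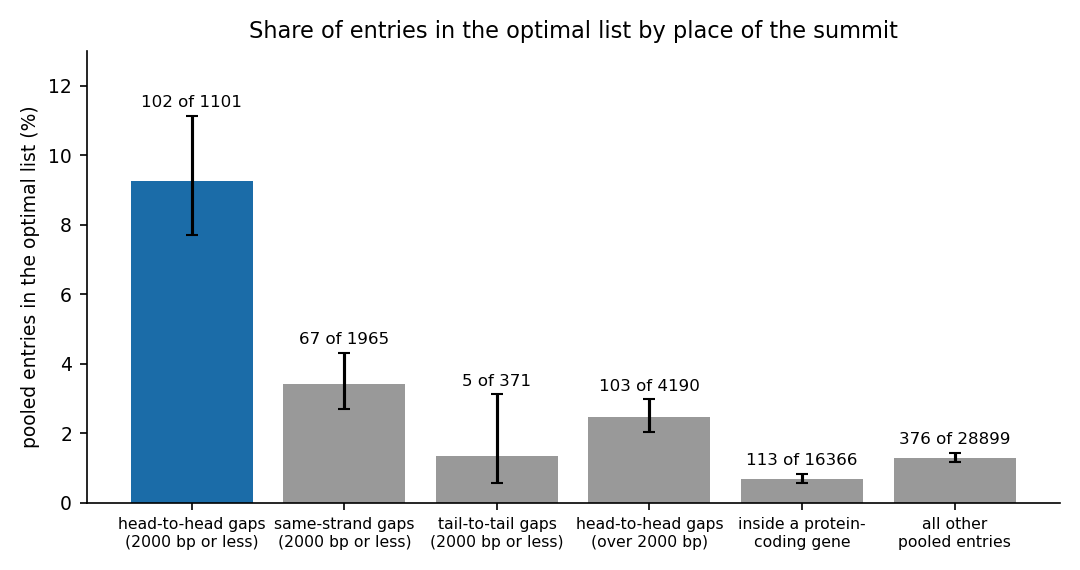
Share of pooled entries in the optimal list (%) by where the summit lay; bars are shares, lines 95% Wilson intervals, and the counts stand above them. Short head-to-head gaps stand at 9.26%, and the next class, short same-strand gaps, at 3.41%.

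Set side by side at like distance from the nearer gene start, entries of head-to-head gaps had the higher share in each of 4 bins. From 0 to 100 bp it was 24 of 293 (8.19%, 5.57 to 11.9) against 7 of 289 (2.42%, 1.18 to 4.91) in same-strand gaps. Over 100 and up to 250 bp it was 50 of 398 (12.6%, 9.66 to 16.2) against 24 of 397 (6.05%, 4.10 to 8.84). The intervals were separate in both bins. Over 250 and up to 500 bp the shares were 23 of 290 (7.93%, 5.34 to 11.6) and 22 of 489 (4.50%, 2.99 to 6.72), and over 500 and up to 1000 bp 5 of 120 (4.17%, 1.79 to 9.38) and 10 of 518 (1.93%, 1.05 to 3.52), and there the intervals overlapped. Some short same-strand gaps lie within operons, where the downstream gene has no promoter of its own. With same-strand gaps under 500 bp left out, their share over 100 and up to 250 bp was 3.88%, and the ratio there was 3.24 in place of 2.08. Head-to-head gaps under 500 bp stayed in, so the 2 kinds then differ in gap length. What operons contribute was not tested.

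**Figure D3:**
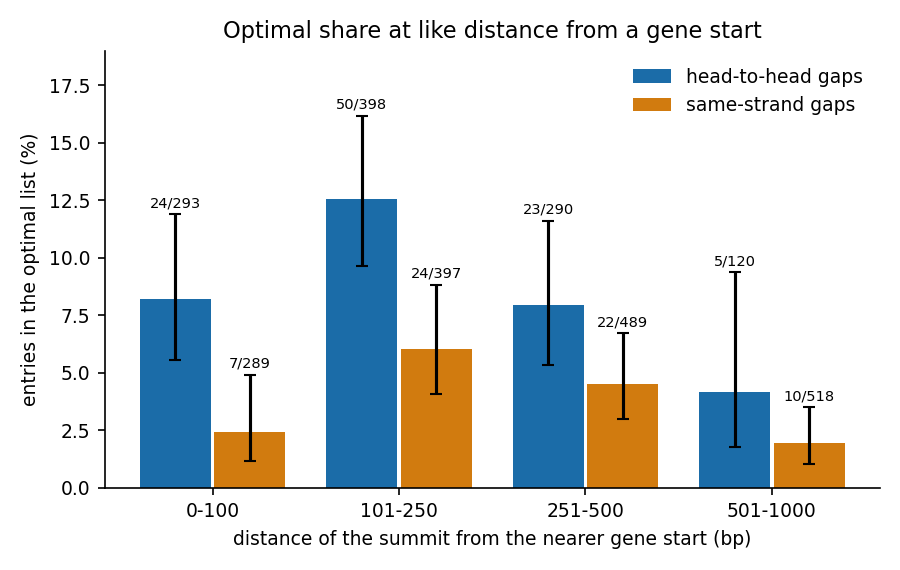
Share of entries in the optimal list (%) by distance of the summit from the nearer gene start (bp), in short head-to-head and same-strand gaps; lines are 95% Wilson intervals and the counts stand above them. The share is highest over 100 and up to 250 bp in both kinds of gap, 12.6% and 6.05%.

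Shares were also higher where the farther start was close. Where the farther start was within 250 bp of the summit, 20 of 145 entries (13.8%, 9.11 to 20.3) were in the optimal list, and where it was over 250 and up to 500 bp away 40 of 278 (14.4%, 10.7 to 19). With the farther start over 500 and up to 1000 bp away it was 24 of 351 (6.84%, 4.64 to 9.97), and beyond that 18 of 327 (5.50%, 3.51 to 8.53). Gap length and this distance go together, so neither can be told apart from the other here.

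Counted by gap, 943 of the 2494 short head-to-head gaps held 1 or more pooled entries and 1551 held none. An optimal peak lay in 4.05% of the 2494 (3.34 to 4.90), against 1.44% of all 11943 short gaps of any orientation. Per gap, head-to-head gaps over 2000 bp had more, 94 of 1717 (5.47%, 4.49 to 6.65), and so did same-strand gaps over 2000 bp than short ones, with 78 of 2863 (2.72%, 2.19 to 3.39). Among short gaps of the other orientations it was 66 of 7288 same-strand gaps (0.906%, 0.712 to 1.15) and 5 of 2161 tail-to-tail gaps (0.231%, 0.0989 to 0.541). Since gaps differ in length, the counts were also set against the sequence they cover, which gave 5.20 optimal peaks per 100 kb of short head-to-head gap, 1.42 of short same-strand gap, 0.428 of short tail-to-tail gap and 0.943 of head-to-head gap over 2000 bp. Among short head-to-head gaps, those with starts over 250 and up to 500 bp apart had the highest share. An optimal peak lay in 37 of 538 of them (6.88%, 5.03 to 9.34), and 37 of their 205 entries (18.05%, 13.4 to 23.9) were in the optimal list.

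The optimal peaks sat toward the shorter gaps, and a larger share of them than of the other entries lay in the central part. Their gaps had a median length of 608 bp, against 935 bp for the 999 other entries, and ranged from 107 to 1922 bp. The summit lay a median of 171 bp from the nearer start and 402 bp from the farther one, against 193 and 699 bp. In the central 33.3% of the gap's length were 44 of the 102 (43.1%), against 32.4% of the other entries. These shares are given without intervals, and most optimal summits lay outside that part. The nearer gene was the left one for 52 peaks and the right one for 49, and at the tag-65/ccz-1 gap the summit was equally far from both.

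**Figure D4:**
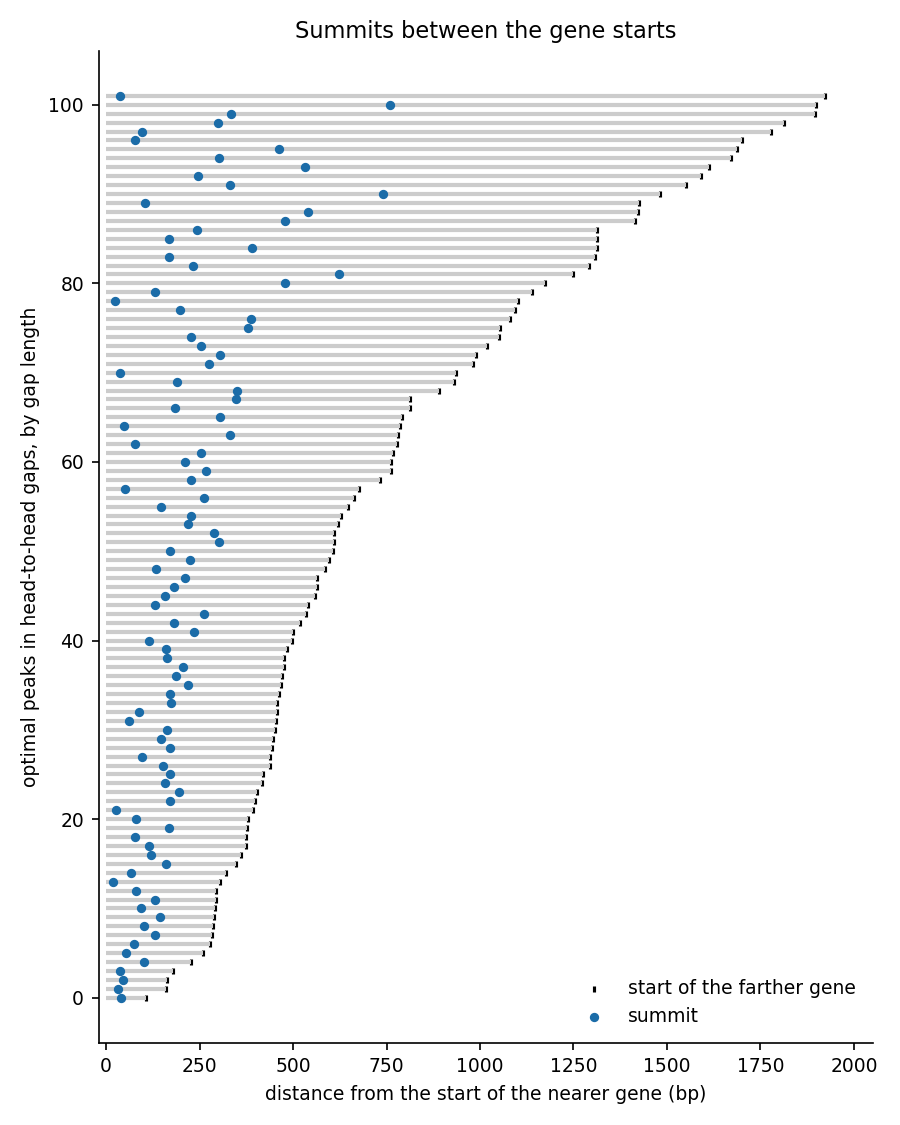
Summits of the 102 optimal peaks (points) on their gaps (grey bars), drawn from the start of the nearer gene at 0 to the start of the farther gene (black tick), in bp and sorted by gap length. Most summits, 74 of the 102, lie within 250 bp of the nearer start, and some of those in long gaps lie near the middle, as at let-70/klc-1.

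At the edge of the length rule there was no step. The share in the optimal list was 11 of 240 entries (4.58%, 2.58 to 8.02) for starts over 1500 and up to 2000 bp apart and 6 of 191 (3.14%, 1.45 to 6.68) for over 2000 and up to 2500 bp. Just inside the limit lay 2 entries of the F21D9.2/F21D9.1 gap, 1999 bp long, at ranks 24699 and 28695, and 1 entry of the gap left of W01C9.2, 1997 bp long, at rank 23399. Just outside lay the entries at fbxa-7/fbxa-73, 2001 bp and rank 18502, at C35B1.5/C35B1.2, 2003 bp and rank 1380, and at elc-1/Y82E9BR.3, 2006 bp and rank 1241.

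The peak of highest signal between divergent genes was at let-70/klc-1 (chrIV:11082821-11083164), with a pooled signal of 140 and rank 2. The entries it overlapped ranked 4 in replicate 1 and 3 in replicate 2. let-70 encodes an E2 ubiquitin-conjugating enzyme and klc-1 a kinesin light chain, a cargo adaptor of the motor that runs along microtubules. The summit lay 740 bp from the start of let-70 and 742 bp from that of klc-1, and the entry overlapped the small nucleolar RNA gene M7.15, which cannot be told apart here from the protein-coding starts as the place the signal belongs to.

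Several of the highest peaks lay beside genes of cytosolic ribosomal proteins. At rps-20/ekl-4 (chrI:14469320-14469407) the signal was 118.95 and the ranks were 3 in replicate 1 and 5 in replicate 2. This entry is 1 of 3 pooled entries that are narrower than the usual 344 bp. At rpl-20/Y17G9B.5 (chrIV:4749897-4750240) it was 107, with ranks 22 and 6. At rpl-15/K11H12.8 (chrIV:654752-655095) it was 85.2, with ranks 10 and 32. The rpl-12/lin-54 peak (chrIV:13240505-13240848) had 72.1 and ranks 19 and 72, and lin-54 encodes a DNA-binding subunit of the DREAM complex, which represses cell cycle genes. The ska-3/rps-12 peak (chrIII:5678964-5679307) had 64.9 and ranks 29 and 131. All of these were among the highest entries of both replicate lists, taking as many as the optimal list holds.

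The other leading peaks lay beside genes of varied function. At sms-2/arr-1 (chrX:949470-949813), a sphingomyelin synthase and the arrestin of C. elegans, the signal was 103 and the ranks were 13 in replicate 1 and 9 in replicate 2. The vps-51/lin-35 gap (chrI:5807276-5807619) had 89.8 with ranks 114 and 7. vps-51 encodes a subunit of the GARP tethering complex of endosome recycling, and lin-35 the retinoblastoma protein homolog. F01G4.6/pfd-1 (chrIV:11149633-11149976), with the gene of a prefoldin subunit on the right, had 84.9 with ranks 2 and 235. K12H4.6/K12H4.5 (chrIII:8043782-8044125) had 80.9 with ranks 15 and 29, and K01G5.10/tasp-1 (chrIII:10759088-10759431), with a taspase homolog, 79.3 with ranks 88 and 14.

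Lower in the same order came sec-61.G/F32D8.7 (chrV:10897202-10897545) with a signal of 72.9, where sec-61.G encodes the gamma subunit of the Sec61 translocon of the endoplasmic reticulum. scm-1/tub-2 (chrI:1873759-1874102) followed with 71.9 and fbxb-85/hex-3 (chrIII:10848843-10849186), with a hexosaminidase gene, with 68.2. Their ranks in replicates 1 and 2 were 18 and 92, 26 and 52, and 8 and 289. Only the ntl-11/Y73F8A.27 gap held 2 optimal peaks. The one at chrIV:15471490-15471833, 167 bp from the start of ntl-11, a subunit gene of the CCR4-NOT deadenylase complex, had a signal of 60.9 and ranks 55 and 70. The one at chrIV:15472394-15472737, 243 bp from the start of Y73F8A.27, had 37.2 and ranks 86 and 1860, so only the first was among the highest entries of both replicates in that sense.

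The optimal list ended within a continuous run of members. Just inside it were sbt-1/num-1 with a signal of 29.74, dnsn-1/C24H12.4 with 29.67 and Y67H2A.2/micu-1 with 29.61, and just outside dli-1/tin-9.2 with 29.46, dnj-22/natc-1 with 29.39 and nars-1/nduf-6 with 29.34. sbt-1 encodes a neuroendocrine chaperone of the 7B2 type.

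In each replicate list, entries of short head-to-head gaps had a higher share than those of short same-strand gaps and than all other entries, the classes compared per replicate. In replicate 1, 993 of its 30000 entries had their summit in a head-to-head gap, and 93 of them (9.37%, 7.71 to 11.3) were among as many of its highest entries as the optimal list holds, against 1.33% of its other entries and 1.59% of the whole list. In replicate 2 it was 95 of 1063 (8.94%, 7.37 to 10.8) against 1.32%, again with 1.59% of the whole list. Same-strand gaps had 4.08% in replicate 1 and 3.11% in replicate 2. Both replicates went into the pooled and optimal lists, so these values are not independent of them.

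Single peaks often had different ranks in the replicates. Of the 102 optimal peaks, 48 (47.1%, 37.7 to 56.7) overlapped an entry among those highest ones in both replicates, by 1 bp or more. A further 16 did so in replicate 1 alone, 31 in replicate 2 alone and 7 in neither. The other optimal peaks had 157 of 376 (41.8%, 36.9 to 46.8) among the highest of both. By gap, 89 head-to-head gaps held such a summit in replicate 1 and 94 in replicate 2, and 48 were in both, which is 53.9% of the first set and 51.1% of the second. Across the 100 optimal peaks with an entry in both lists, Spearman's rho of the ranks was 0.18, over peaks that were selected for high signal and share both libraries. The ahsa-1/C01G10.7 peak ranked 22771 in replicate 1 and 84 in replicate 2, and rpl-31/sac-2 12870 and 201, while rps-23/dpm-3 ranked 34 and 2258.

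**Figure D5:**
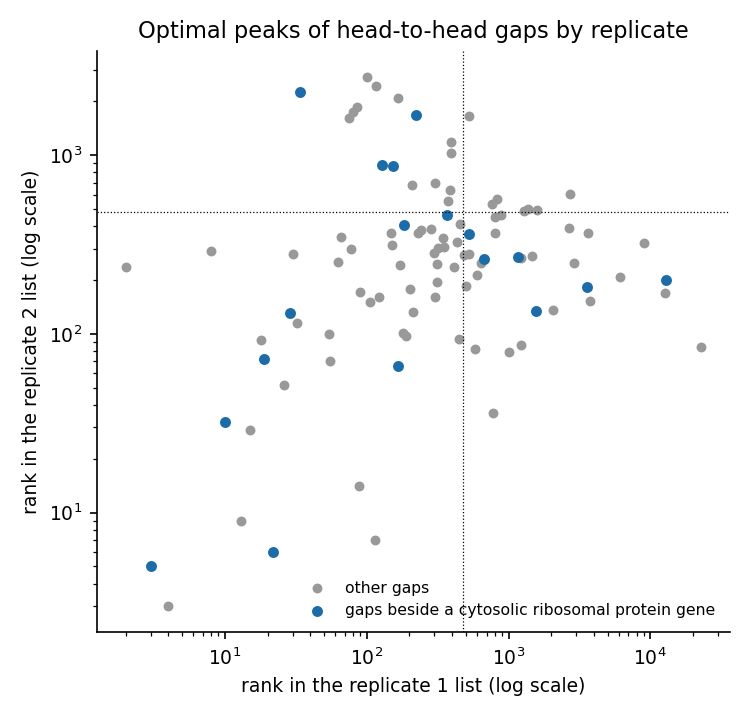
Rank in the replicate 1 list against rank in the replicate 2 list (both log scales) for the 100 optimal peaks of head-to-head gaps with an entry in both, with those beside a cytosolic ribosomal protein gene in blue; dotted lines mark the rank equal to the length of the optimal list. The lower left corner holds 48 peaks, and 18 points are blue.

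Genes of cytosolic ribosomal proteins stood out among the genes beside the gaps. Of the 4988 genes beside a short head-to-head gap, 202 (4.05%) had an optimal peak in that gap. Among 81 genes of cytosolic ribosomal proteins, 49 lay beside such a gap, 42 had an entry in it and 21 (42.9%, 30.02 to 56.7) an optimal peak. The ribosomal excess in these data was known when the list was drawn up. The 21 genes shared 18 gaps, since the pairs rps-14/rpl-36, rps-10/rpl-24.1 and rpl-39/rps-30 had a ribosomal gene on both sides. For 9 of the 21 the ribosomal gene was the nearer one, so the peak cannot be given to it by distance alone. Counted by gap, 18 of the 46 gaps beside a ribosomal protein gene (39.1%) and 83 of the other 2448 (3.39%) held an optimal peak. With the gaps beside these genes left out, 84 of 1054 entries (7.97%) were in the optimal list.

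Other lists of housekeeping genes had smaller counts. Genes of chromatin and histone-modifying proteins had 6 of 32 (18.8%, 8.89 to 35.3), the 4 of highest signal being lin-35, lin-54, set-16, a trithorax-type histone methyltransferase, and jmjd-1.2, a histone demethylase. For only 1 of the 6, efl-1, the listed gene was the nearer one. Chaperones had 6 of 39 (15.4%, 7.25 to 29.7), with pfd-1, the CCT chaperonin subunits cct-1 and cct-7, and hsp-110, and the listed gene was the nearer one for 0 of the 6. For membrane trafficking it was 6 of 52 (11.5%, 5.40 to 23.0), with vps-51, sec-61.G, vps-60 and apb-1, a beta subunit of clathrin adaptors, and 5 of the 6 were the nearer gene. Translation factors had 4 of 37 (10.8%, 4.29 to 24.7), namely eef-1A.1, iff-2, ifet-1 and eef-1G. RNA polymerase and general transcription genes had 3 of 23 (13.04%, 4.54 to 32.13), namely mdt-19, cdk-7 and rpb-3. The lower bounds of these 5 intervals lay above the 4.05% of all genes beside the gaps. This is a description, since the 22 lists were chosen with earlier results of these data known and no allowance was made for their number. Each gap counts for both of its genes, so the 5 lists are not separate counts. The vps-51/lin-35 peak was in trafficking and chromatin, and the apb-1/mdt-19 peak in trafficking and general transcription. Some peaks of these lists lay beside a ribosomal protein gene too, as at rpl-12/lin-54, ifet-1/rps-1 and aps-3/rpl-17. With such gaps left out, a step added after seeing the data, all genes beside the gaps stood at 3.39% and the lists at 5 of 30 for chromatin (16.7%, 7.34 to 33.6), 6 of 39 for chaperones and 3 of 23 for general transcription, both as before, 5 of 49 for trafficking (10.2%, 4.44 to 21.8) and 3 of 36 for translation factors (8.33%, 2.87 to 21.8), whose interval then included that share.

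The intervals of 7 further lists included that background. Respiratory chain genes had 3 of 41 (cox-5B, ndua-8 and ndub-8), proteasome and ubiquitin genes 3 of 47 (let-70, rpn-3 and pas-4) and cell cycle and replication genes 3 of 42 (rfc-4, cdc-6 and cdk-7). Mitochondrial ribosomal proteins had 2 of 26 (mrps-7 and mrpl-49), germline genes 2 of 48 (puf-9 and mex-1), splicing factors 1 of 33 (prp-19) and nuclear pore genes 1 of 27 (npp-7).

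Of all 19973 protein-coding genes, 24.97% lay beside such a gap. Several lists of genes with roles in particular tissues had lower shares, such as homeobox genes with 12.5%, muscle genes with 10.9%, nuclear hormone receptors with 16.1%, and collagen and cuticle genes with 19.03%. Intestine genes with 30.1% and germline genes with 38.4% had higher ones, and the differences were not tested. Of 49 pan-neuronal synaptic and vesicle genes only 4 lay beside such a gap, of 140 neuropeptide and insulin-like genes 14, and of 96 homeobox genes 12, and none of these had an optimal peak. With the limit that a count of 0 allows taken as 3 counts, these allow shares of up to 75%, 21.4% and 25%, and the upper bounds of the Wilson intervals were 49.0%, 21.5% and 24.2%. Of 69 axon guidance genes 9 lay beside a gap and 2 had an optimal peak in it (22.2%, 6.32 to 54.7), against 4.05% of all genes beside the gaps. These were mig-5, a Dishevelled homolog, whose gap with cct-1 had a signal of 58.2, and unc-40, the netrin receptor, whose gap with npp-7 had 35.98, and both were the nearer gene. Nor did a peak lie beside any of 88 intestine genes (up to 3.41%), 64 histone genes (up to 4.69%), 44 nuclear hormone receptor genes (up to 6.82%), 43 collagen and cuticle genes (up to 6.98%) or 6 muscle genes (up to 50%), by the same limit of 3 counts. The Wilson upper bounds, 4.18% for intestine and 5.66% for histone genes, were above the 4.05% of all genes. Histone genes are near-identical copies, and only 2 of the 64 had any pooled entry. The starts of zag-1 and unc-119 themselves face same-strand gaps, of 14215 and 805 bp, which held no pooled entry. The animals also carry the eGFP-zag-1 transgene, and a missing entry at zag-1 cannot be read as absence of binding.

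Base composition moved with membership in the optimal list. The mean GC content within 100 bp of the summit was 42.2% for the 102 optimal peaks in the gaps and 34.2% for the 999 other entries there. Short same-strand gaps had 40.8% in their 67 optimal peaks, and the other 376 optimal peaks as a whole had 43.5%. High GC content was thus not particular to the optimal peaks of head-to-head gaps. Entries of the gaps had the higher share in every GC bin, with 33.3% against 11.8% of other pooled entries above 45% GC, 22.2% against 4.15% from 40 to 45%, 10% against 1.31% from 35 to 40%, 2.91% against 0.386% from 30 to 35%, and 1.45% against 0.0394% at 30% or less. Between windows over 40% GC alone the ratio was 4.11 in place of 7.12. Short same-strand gaps came closer, with 18.4%, 9.15%, 7.03%, 1.58% and 0 of 723 in the same order of bins, and their intervals overlapped those of the head-to-head gaps above 45%, from 35 to 40% and from 30 to 35% GC. What GC content contributes through the assay was not tested.

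By chromosome the shares ranged from 3.13% to 11.5%, with intervals that overlapped for every pair of chromosomes. On chromosomes I, III and IV 23 entries each were in the optimal list, of 200, 201 and 202, or 11.5%, 11.4% and 11.4%. On II it was 12 of 171 (7.02%) and on V 18 of 231 (7.79%). On X it was 3 of 96 (3.13%, 1.07 to 8.79), namely at sms-2/arr-1, dct-11/puf-9 and sft-4/gakh-1, against 1.39% of the other X entries, the smallest ratio of the 6 chromosomes at 2.24. The largest ratio was on V, at 10.9. Other annotated genes, mostly ncRNA, overlapped 21 of the 102 optimal peaks and 102 of the 999 other entries.

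The 3 hexamers searched for in the windows printed at the start had lower shares in these peaks than in the rest of the optimal list, with separate intervals for GAGAGA alone. On either strand within 100 bp of the summit, GAGAGA was found in 33.3% (24.9 to 42.9) of the 102 peaks, 53.7% (48.7 to 58.7) of the other 376 optimal peaks, 17.02% of the other 999 entries in the gaps and 12.2% of the rest of the pooled list. CGTCTC stood at 25.5%, 39.4%, 10.9% and 5.57%, and GACGCA at 25.5%, 28.5%, 10.9% and 4.06%. None of the 3 was present in 47 of the 102 (46.1%) and in 30.9% of the other optimal peaks. The optimal peaks of short same-strand gaps had like shares, 23.9% for GAGAGA and 25.4% for each of the others, with none of the 3 in 53.7%, so the lower shares are not particular to head-to-head gaps. The words share letters where they overlap, so they are not independent counts. Among windows over 40% GC, GAGAGA was at 38.1% in the optimal peaks of the gaps, 36.9% in the gaps' other entries and 63.7% in the other optimal peaks, while GACGCA turned to 34.9% in the optimal peaks of the gaps and 33.98% in the other optimal peaks.

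The E-box sequences known for ZEB proteins were rare. CAGGTG was found in 1 of the 102 windows (0.980%, 0.173 to 5.35) and CAGGTA in 3 (2.94%, 1.01 to 8.29), against 3.94% and 4.33% in the rest of the pooled list. The homeodomain-type word TAATTA was in 5 (4.90%) against 11.4%, and a run of 8 T in 13 (12.7%) against 28.7%. The other optimal peaks had low shares too, 2.13% for CAGGTG, 1.33% for CAGGTA, 4.79% for TAATTA and 15.7% for the run of T. The low shares were thus not particular to head-to-head gaps. Windows in the rest of the pooled list were poorer in GC, with a mean of 32.9% against 42.2%. What this contributes was not tested. A word that is missing from a window says nothing about the factor.

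Beside the ribosomal genes the hexamers were scarcer still. Any of the 3 was present in 3 of the 18 peaks beside a cytosolic ribosomal protein gene (16.7%) and in 52 of the other 84 (61.9%). A search for words of 8 letters that are frequent in the 102 windows and rare in windows outside the optimal list was therefore added after these values were seen. It took the 4 words with the highest ratio among those in 9 or more windows, passing over words that share most of their windows with one already taken. Since the words were picked for this contrast, their shares are a description and support nothing. Any of the 4 was present in 42 of the 102 windows (41.2%), in 7.71% of the other 376 optimal peaks, in 18 of the 67 optimal peaks of short same-strand gaps (26.9%) and in 1.13% of the rest of the pooled list. Among windows over 40% GC it was 44.4% of the optimal peaks and 16.7% of the other entries of the gaps. With the hexamers, 76 of the 102 (74.5%) held 1 or more words of either kind.

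The first word, CTACGCAG, was in 9 of the 102 windows (8.82%), in none of the other 376 optimal peaks, in 3 of the 999 other gap entries (0.300%) and in 0.140% of the rest of the pooled list. The count of 0 allows a share of up to 0.798% (3 counts), or 1.01% by the Wilson interval. Of the 9 gaps, 4 lay beside a ribosomal protein gene. CG stood just before the word at 7 of the 9 sites, and 7 lay within 50 bp of the summit. Of all 33 short head-to-head gaps that hold the word anywhere, 10 (30.3%, 17.4 to 47.3) had an optimal peak, against 4.05% of all short head-to-head gaps. The 9 gaps whose windows gave the word are among the 10, so the higher share follows in part from its choice. Below are 5 of the sites, all with CG before the word, while the sites without it are not shown. They have 14 bases on each side and the word in capitals, each written in the direction in which it reads as above.
rpl-12/lin-54 (chrIV:13240656-13240691, + strand): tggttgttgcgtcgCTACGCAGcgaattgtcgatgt
iff-2/F54C9.14 (chrII:8561404-8561439, + strand): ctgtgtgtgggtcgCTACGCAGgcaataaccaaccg
rps-14/rpl-36 (chrIII:7179832-7179867, + strand): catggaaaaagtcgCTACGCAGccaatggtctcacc
nhl-2/tag-340 (chrIII:4899893-4899928, + strand): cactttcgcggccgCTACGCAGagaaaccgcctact
syf-2/K04G7.1 (chrIII:7162458-7162493, - strand): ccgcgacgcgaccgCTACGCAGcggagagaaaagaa

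A second word found beside ribosomal genes was CGCTCCAC, in 10 of the 102 windows (9.80%), 2.13% of the other optimal peaks, 2.30% of the other gap entries and 0.316% of the rest of the pooled list. Of its 10 gaps, 5 lay beside a ribosomal protein gene. The letters GCAA stood at 7 to 4 bases before the word at 6 of 10 sites, and 7 of the words were within 50 bp of the summit. The rpl-12/lin-54 window held both this word and the first. Of the sites below, the lower 3 and the rpl-12/lin-54 site have GCAA there.
rpl-20/Y17G9B.5 (chrIV:4750103-4750138, - strand): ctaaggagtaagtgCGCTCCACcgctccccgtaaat
rpl-15/K11H12.8 (chrIV:654910-654945, + strand): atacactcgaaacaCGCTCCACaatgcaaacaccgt
rpl-12/lin-54 (chrIV:13240700-13240735, - strand): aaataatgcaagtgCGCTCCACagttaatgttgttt
ifet-1/rps-1 (chrIII:4475637-4475672, - strand): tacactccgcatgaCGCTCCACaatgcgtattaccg
fib-1/mut-15 (chrV:15002281-15002316, - strand): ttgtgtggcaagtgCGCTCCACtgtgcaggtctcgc
prp-19/K10D2.5 (chrIII:5172661-5172696, - strand): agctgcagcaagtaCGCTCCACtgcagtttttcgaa
efl-1/fbxa-90 (chrV:16965856-16965891, - strand): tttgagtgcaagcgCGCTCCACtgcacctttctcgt

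The word TGCGCCAG was found in 11 of the 102 windows (10.8%), none of them beside a ribosomal protein gene. It was not limited to these gaps, being in 3.46% of the other optimal peaks and in 10 of the 67 optimal peaks of same-strand gaps (14.9%, 8.31 to 25.3), against 1.30% of the other gap entries and 0.172% of the rest of the pooled list. TCGA was present in the 14 bases before it at 7 of the 11 sites, and 9 words were within 50 bp of the summit. The 6 sites below show the stretch before the word. All 6 have TCGA in it, and the sites without it are not shown.
F01G4.6/pfd-1 (chrIV:11149799-11149834, + strand): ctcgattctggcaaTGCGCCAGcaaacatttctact
K12H4.6/K12H4.5 (chrIII:8044012-8044047, - strand): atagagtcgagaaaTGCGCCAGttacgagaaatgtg
fbxb-85/hex-3 (chrIII:10849029-10849064, - strand): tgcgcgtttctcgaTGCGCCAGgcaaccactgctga
tag-65/ccz-1 (chrV:13678696-13678731, + strand): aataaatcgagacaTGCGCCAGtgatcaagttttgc
haf-3/F57A10.2 (chrV:15766358-15766393, + strand): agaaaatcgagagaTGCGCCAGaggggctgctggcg
metl-1/W02B12.11 (chrII:11473759-11473794, + strand): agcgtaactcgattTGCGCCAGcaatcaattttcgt

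The most frequent of the 4 words was GGTCTCGC, in 15 of the 102 windows (14.7%), 2.66% of the other optimal peaks, 3.50% of the other gap entries and 0.505% of the rest of the pooled list. It was in 6 of the 67 optimal peaks of same-strand gaps (8.96%). The letters CGA stood at 3 to 5 bases after the word at 10 of the 15 sites, a G just before it at 12, and 13 words lay within 50 bp of the summit. It read along the strand of the nearer gene at 10 sites and along the other at 5. Of all 151 short head-to-head gaps that hold it, 20 (13.2%, 8.74 to 19.6) had an optimal peak, against 4.05% of all short head-to-head gaps. The 15 gaps whose windows gave the word are among the 20, so here too the higher share follows in part from its choice. The genes beside the sites below include hsp-110, a chaperone, rpn-3, a proteasome subunit, htz-1, the histone variant H2A.Z, and fib-1, the nucleolar protein fibrillarin, whose gap with mut-15 also held CGCTCCAC.
hsp-110/rpn-3 (chrIII:8447150-8447185, - strand): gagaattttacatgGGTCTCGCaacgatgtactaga
wapl-1/htz-1 (chrIV:4445876-4445911, - strand): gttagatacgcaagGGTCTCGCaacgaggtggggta
F29B9.11/jmjd-1.2 (chrIV:4660456-4660491, - strand): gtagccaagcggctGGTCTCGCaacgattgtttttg
rpl-39/rps-30 (chrV:7776301-7776336, - strand): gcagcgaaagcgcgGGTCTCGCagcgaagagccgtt
hmgs-1/F25B4.4 (chrV:5684728-5684763, - strand): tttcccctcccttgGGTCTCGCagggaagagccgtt
fib-1/mut-15 (chrV:15002267-15002302, - strand): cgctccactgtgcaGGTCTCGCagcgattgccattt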

How the data were processed

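Chromatin immunoprecipitation and sequencing of eGFP-tagged ZAG-1 was done on 2 replicates, against a control alignment per the release notes. The authors deposited narrowPeak lists on ce11 and ce10, of which the 4 on ce11 were used and the 4 on ce10 were not. The pooled list and both replicate lists hold 30000 entries each of peaks and background, and the optimal list is a part of the pooled one. Each entry has a signal value, which is the authors' own score whose formula is not stated, and a −log10 q as deposited by the authors. Both were used only to rank and describe entries within a list. Which aligner, caller and threshold were used, and the read depth, is not stated there.

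Summits were placed in the stretches covered by none of the 19973 protein-coding genes on 6 chromosomes (Ensembl 115, WBcel235, the same build as ce11), with Python 3.11.15, pandas 2.3.3, NumPy 2.4.6 and SciPy 1.17.1. Gene starts are annotated starts, not measured ones. Windows reached 100 bp on each side of the summit, with sequence from RefSeq. Shares have 95% Wilson intervals, and a count of 0 also the limit of 3 counts, and no test was made, since there is 1 group. The placing of gaps, summits and overlaps was tested on simulated data.

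The members, the 22 gene lists and the 7 words counted first were chosen with earlier results of these data known. Named are the genes of the 15 gaps with the highest signal, up to 4 genes per list by signal, gaps with 2 optimal peaks, entries at the edges of the length rule and the optimal list, zag-1 and unc-119. Genes beside the printed 8-letter words, peaks with far apart ranks, those on X, and the few genes of lists with up to 3 were named after their values were seen. Alternatives were other gap limits, whole entries, other comparison entries, single replicates and other windows, and, chosen after seeing the data, windows over 40% GC and gene lists without gaps beside ribosomal protein genes.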

Additional observations from a re-analysis of the deposited data

How the results depend on the processing

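The ratios, rank differences and gap shares kept their direction under the alternatives run. The order of GACGCA turned, from 25.5% in the optimal peaks of the gaps and 28.5% in the other optimal peaks to 21.6% and 19.9% with 50 bp on each side and 34.9% and 33.98% over 40% GC. The ratio of optimal shares, 7.12, was 8.76 with gaps up to 1000 bp, 5.21 up to 4000 bp, 5.74 with the whole entry in the gap, 3.98 against other entries within 500 bp of a start and 4.11 in windows over 40% GC, the last chosen after seeing the data. From single replicates it was 6.75 to 7.06. The difference in median rank, 6094, was 9326 and 4514 at those gap limits, 5107 with whole entries, 4898 against entries near a start, and 4640 to 5912 from single replicates. Gaps with an optimal peak, 4.05%, were 2.25% with the optimal peaks above the median signal alone and 3.57% to 3.77% from single replicates. With those peaks the ratio at like distance was 2.17 in place of 3.38 from 0 to 100 bp and 2.81 in place of 1.76 over 250 and up to 500 bp. With the same-strand gaps alone limited to 500 bp or more, it was 3.24 over 100 and up to 250 bp. Among the 1000 highest entries the ratio was 4.99 in replicate 1 and 5.07 in replicate 2. With 50 bp on each side of the summit the shares of windows were 24.5% for GAGAGA, 17.6% for CGTCTC, 0.980% for CAGGTA, 1.96% for TAATTA and 1.96% for a run of 8 T, and over whole gaps, which are longer, 50.5% for GAGAGA, 35.6% for GACGCA, 12.9% for CAGGTG, 9.90% for CAGGTA, 36.6% for TAATTA and 53.5% for the run of T. Whole gaps that hold other entries had 49.0% for GAGAGA, 29.7% for CGTCTC and 28.6% for GACGCA, with intervals that overlapped those of gaps with an optimal peak. With smaller windows a word's share can only stay or fall, and with fewer peaks so can the share of gaps. Those falls follow from the settings, and the cause of the other moves was not tested. In all, 27 values moved beyond their interval, falls of that kind among them, and 19 did not. For the ratios at like distance and by replicate, the interval carried the counting error of the head-to-head share alone and took the comparison share as fixed. No paired analysis was possible because there is 1 group and no test. Intervals cannot take account of read depth or of the spread between animals, and 2 replicates whose lists also make up the pooled list give no separate estimate of it.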

Other observations

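Several complexes had more than 1 of their genes beside an optimal peak. These groups were put together after the values were seen, so the counts are a description, to be read beside the 4.05% of all genes beside short head-to-head gaps that had an optimal peak. Of 8 genes of the DREAM complex and the Rb pathway, 5 lay beside a short head-to-head gap and 4 had an optimal peak in it. These were lin-35, the retinoblastoma homolog, efl-1, an E2F factor, lin-53, a histone-binding protein, and lin-54, with lin-9 the one without. Their peaks ranked from 11 at vps-51/lin-35 to 443 at efl-1/fbxa-90 in the pooled list, and efl-1 was the only one of the 4 that was the nearer gene of its gap.

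All 8 genes of the CCT chaperonin, which folds actin and tubulin, lay beside such gaps, and 3 had an optimal peak. The signals were 58.2 at mig-5/cct-1, 48.9 at T10B5.4/cct-7 and 42.5 at cct-8/Y55F3AR.2, and in each case the other gene was the nearer one. Of 6 genes of the ESCRT-III membrane scission machinery beside such gaps, 3 had an optimal peak, vps-60 with a signal of 54.5, vps-32.1 with 49.0 and chmp-7 with 39.1.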
